A study of Mus musculus with 4 samples.

Results

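The genes described here are 10 regulators of the joint and bone lineages: the secreted ligands Gdf5, Gdf6 and Ihh, the type I receptor Bmpr1b, the transcription factors Runx1, Runx2, Runx3, Sp7 and Nkx3-2, and the Runx partner Cbfb. They were chosen by gene symbol from the 25239 symbols of the deposited count table, and all 10 were present and passed the filter on low counts. RNA was sequenced from mouse hindlimb bud cells at embryonic day 11.5 in 4 libraries, 2 from anterior cells positive for mCherry and 2 from central cells negative for it. All 4 came from FVB embryos labelled wild-type that carried the same reporter at the H11 locus, in which the human ZRS, the limb enhancer of Shh, with the 404G>A change and the hsp68 promoter drives mCherry. Cells were dissected by domain, dissociated and sorted on the reporter, so position in the bud and reporter state changed together and cannot be told apart. The labels do not say how many embryos each library pools or whether the libraries of a group came from separate embryos, so the p-values measure the spread between these libraries, which may be technical.

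The limb skeleton forms as mesenchyme condenses into cartilage, is segmented by joint interzones, and is later replaced by bone. Gdf5 and Gdf6 are BMP family ligands of the interzone, and GDF5 binds the receptor BMPR1B with preference. Runx2 is required for osteoblasts and Sp7, also called Osterix, acts downstream of it. Runx1 is best known from blood formation and Runx3 from sensory neurons, while all Runx proteins also act in the skeleton and bind DNA as a dimer with CBFB. Ihh is made by prehypertrophic chondrocytes, and Nkx3-2, also called Bapx1, is a cartilage-promoting repressor of the somite and limb.

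Library totals ranged from 30080925 to 33257383 counts, and 3 counts corresponded to 0.0899 to 0.102 CPM, counts scaled by TMM to a common library total. The hindlimb factor Tbx4 measured 225 to 267 CPM in the 4 libraries, and the forelimb factor Tbx5 had 0 and 2 counts in the anterior libraries, against 82 and 44 in the central ones. Replicates differed by more than sampling noise, with a chi-square per degree of freedom on halved counts of 15.1 between the anterior libraries and 8.49 between the central ones. Among the 14610 tested genes, 3351 had an adjusted p under 0.05 in the quasi-likelihood F test of edgeR (Benjamini-Hochberg), a share of 22.9%, with 10.7% higher and 12.3% lower in anterior cells.

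The Runx genes are each transcribed from a distal and a proximal promoter in mammals. The RefSeq promoter table for GRCm38.p6, the build named mm10 in the submitters' processing notes, held start sites of 7 of the 10 genes, and those of Gdf5, Gdf6 and Sp7 were not matched. The 250 bases before each Runx start are shown because Runx1 was called higher in anterior cells while its paralogs Runx2 and Runx3 were not called. Capitals mark the RUNX core TGTGGT or TGCGGT, or the GC box GGGGCGGGG, on either strand, so that ACCACA is TGTGGT read on the other strand.
Runx1 distal, chr16:92826075-92826324, minus strand: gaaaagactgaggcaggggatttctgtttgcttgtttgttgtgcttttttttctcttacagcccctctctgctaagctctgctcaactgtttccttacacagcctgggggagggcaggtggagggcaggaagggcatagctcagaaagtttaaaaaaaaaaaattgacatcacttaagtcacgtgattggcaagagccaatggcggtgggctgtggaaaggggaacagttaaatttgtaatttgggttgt
Runx1 proximal, chr16:92697330-92697579, minus strand: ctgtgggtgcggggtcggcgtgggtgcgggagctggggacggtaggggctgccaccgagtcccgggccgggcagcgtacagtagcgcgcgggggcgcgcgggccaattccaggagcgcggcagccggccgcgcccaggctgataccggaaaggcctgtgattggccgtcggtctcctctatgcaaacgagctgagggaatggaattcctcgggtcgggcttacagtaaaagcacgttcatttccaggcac
Runx2 distal, chr17:44814628-44814877, minus strand: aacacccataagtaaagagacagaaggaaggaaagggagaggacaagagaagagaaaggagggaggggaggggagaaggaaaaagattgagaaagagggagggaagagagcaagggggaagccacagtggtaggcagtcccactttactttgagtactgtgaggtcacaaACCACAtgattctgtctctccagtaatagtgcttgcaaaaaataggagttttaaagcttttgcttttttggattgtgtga
Runx3 distal, chr4:135120395-135120644, plus strand: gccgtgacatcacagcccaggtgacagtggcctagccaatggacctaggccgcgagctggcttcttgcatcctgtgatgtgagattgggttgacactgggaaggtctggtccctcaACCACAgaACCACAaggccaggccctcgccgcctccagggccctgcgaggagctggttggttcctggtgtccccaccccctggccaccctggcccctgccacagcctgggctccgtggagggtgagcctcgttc
Runx3 proximal, chr4:135152295-135152544, plus strand: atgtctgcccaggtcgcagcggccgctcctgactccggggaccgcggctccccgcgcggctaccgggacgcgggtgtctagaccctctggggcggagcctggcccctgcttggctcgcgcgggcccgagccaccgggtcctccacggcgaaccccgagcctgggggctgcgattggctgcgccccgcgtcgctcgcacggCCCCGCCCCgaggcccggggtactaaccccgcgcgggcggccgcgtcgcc
The Runx2 window held TGTGGT on its minus strand, ending 74 bases before the start, and the distal Runx3 window held it at 128 and 120 bases, with the copies separated by 2 letters. Among 32817 promoter windows of the same length, 14% held TGTGGT, 5.09% held TGCGGT and 10.4% held the GC box. The distal windows of Runx1 and Runx2 had a GC content of 45.6% and 44.8% with 2 and 0 CpG pairs. The distal Runx3 window had 65.2% with 8, and the proximal windows of Runx1 and Runx3 had 67.6% and 78.8% with 27 and 38. A match is a description of the letters and not a binding site. Counts per gene do not say which promoter was used.

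Of the 10 regulators, Gdf6 and Runx1 were higher in anterior cells, Bmpr1b was lower, and 7 did not pass the test. These 3 of 10 compare with 22.9% of all tested genes, so the share called is close to the background. The groups did not overlap for 5 of the 10, beside 63.5% of all tested genes. The median log2 fold change of the 10 genes was -0.11, beside -0.009 over all tested genes. Without regard to sign the median was 0.84 for the 10 genes and 0.22 for all tested genes, which were not matched to the 10 in level. Nkx3-2 and Runx3, with 12 to 157 and 25 to 102 counts per library, lay above 0.84 and were not called. In bulk libraries, fewer cells of a type and less RNA per cell cannot be told apart.

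**Figure D1:**
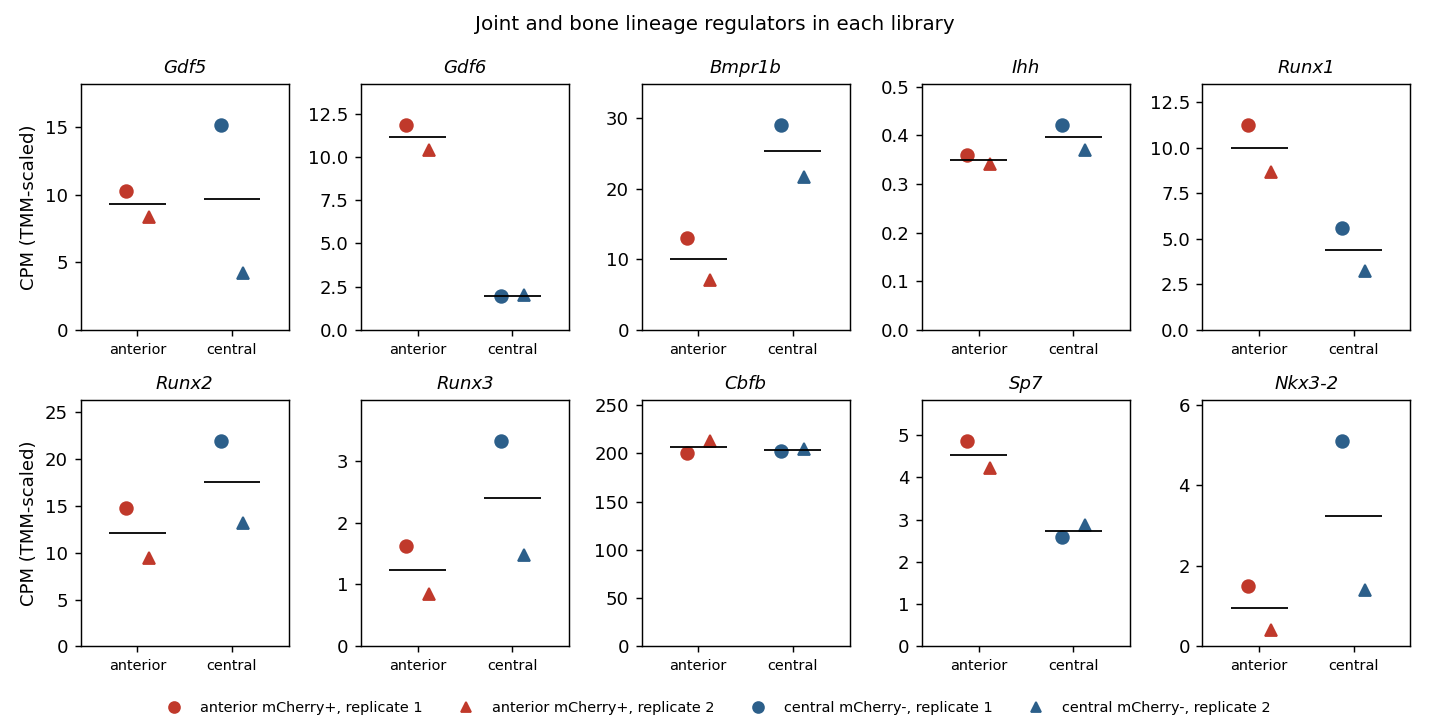
TMM-scaled CPM of each of the 10 regulators (vertical axes from 0) in anterior mCherry+ and central mCherry- cells, with a point per library, circles for replicate 1, triangles for replicate 2, and a line at the group mean. Gdf6 and Runx1 lie higher in both anterior libraries, Bmpr1b lies lower, and the central points of Gdf5 (15.2 and 4.20 CPM) enclose its anterior points.

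Among the ligands, Gdf6 had the largest rise of the 10. Gdf6 (ENSMUSG00000051279.2, chr4:9844372-9862345 on the plus strand of GRCm38) measured 11.9 and 10.4 CPM in the anterior libraries, against 1.95 and 2.01 in the central ones, from 396, 305, 60 and 65 counts. The anterior libraries were far above the central ones, and replicates lay close together. The group means were 11.1 ± 1.04 and 1.98 ± 0.042 CPM (SD, n = 2 each). Expression was 5.62-fold higher in anterior cells, a log2 fold change of 2.49 ± 0.22 (SE) with a 95% interval of 1.98 to 2.999 and an edgeR adjusted p of 0.000108. The call held under all 15 alternatives that were run, including each left-out library.

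Its paralog Gdf5 did not follow it. Gdf5 (ENSMUSG00000038259.4, chr2:155941023-155945367, minus strand) measured 10.3 and 8.35 CPM in the anterior libraries, against 15.2 and 4.20 in the central ones. The central libraries held the highest and the lowest value, so the groups overlapped, and the 3.62-fold gap between central replicates exceeded any gap between groups. Its log2 fold change was -0.05 ± 0.46 (SE, 95% interval -1.11 to 1.01, edgeR adjusted p 0.949), an interval that includes a change of 2-fold either way. The direction rested on which central library was kept. Without central replicate 1 the log2 fold change was 1.15 (edgeR adjusted p 0.00481), and without central replicate 2 it was -0.70 (adjusted p 0.0205). Exons of Gm15557 on the opposite strand cover 40.3% of the Gdf5 exon length, and whether the counting used strand is not given in the sources used here, so reads from the overlap cannot be assigned.

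On levels per kilobase of exon, Gdf6 made up 43.1% and 45.0% of the summed Gdf5 and Gdf6 level in the anterior libraries, against 7.77% and 23.9% in the central ones. The anterior shares were higher than both central shares, while the central shares differed from each other through Gdf5. With 2 libraries against 2 the smallest p of an exact two-sided permutation test is 0.333, so the shares were not tested.

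Bmpr1b, the type I BMP receptor of prechondrogenic condensations, was the member called lower. Bmpr1b (ENSMUSG00000052430.15, chr3:141837136-142169425, minus strand) measured 13.0 and 7.09 CPM in the anterior libraries, against 29.1 and 21.6 in the central ones. The lowest central library was above the highest anterior one. Means were 10.02 ± 4.14 and 25.3 ± 5.26 CPM (SD, n = 2 each), a level 2.52-fold higher in central cells. The log2 fold change was -1.33 ± 0.26 (SE, 95% interval -1.92 to -0.74, edgeR adjusted p 0.00691), and it ranged from -1.83 to -0.96 with each library left out, called every time.

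Ihh was near the limit of detection in every library. Ihh (ENSMUSG00000006538.12, chr1:74945315-74951672, minus strand) had 12 and 10 counts in the anterior libraries, against 13 and 12 in the central ones, or 0.341 to 0.422 CPM. The libraries differed by at most 3 counts. The log2 fold change of -0.17 had a 95% interval of -1.65 to 1.30 (edgeR adjusted p 0.878). This wide interval includes differences in either direction, so equal levels are not shown at this depth.

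**Figure D2:**
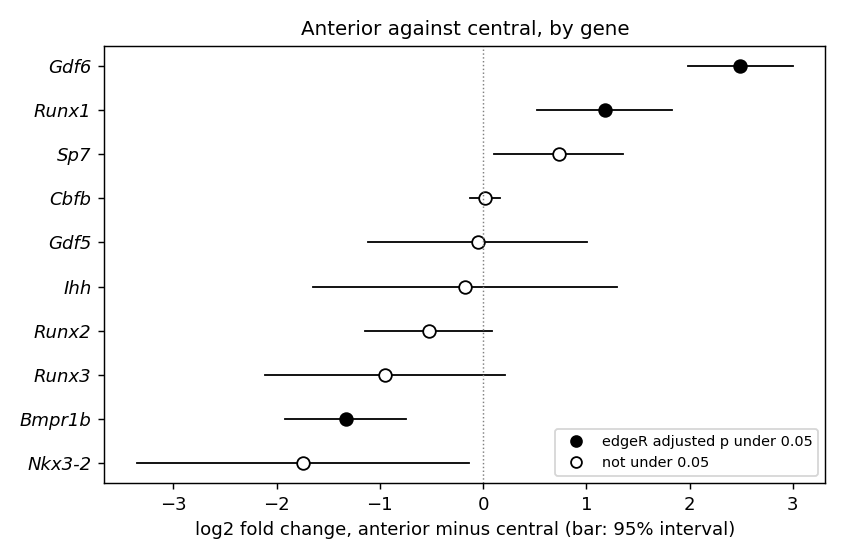
Log2 fold change of each regulator, anterior minus central (horizontal axis), with bars for the 95% interval and filled points for an edgeR adjusted p under 0.05. Gdf6 (2.49), Runx1 (1.18) and Bmpr1b (-1.33) are filled, and the widest intervals belong to Nkx3-2 and Ihh.

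Of the Runx family, Runx1 was called and was higher in anterior cells, whereas Runx2 and Runx3 had lower means there and were not called. Runx1 (ENSMUSG00000022952.17, chr16:92601466-92826149, minus strand) measured 11.3 and 8.66 CPM in the anterior libraries, against 5.62 and 3.21 in the central ones. Both anterior values lay above both central ones. Group means were 9.97 ± 1.85 and 4.42 ± 1.70 CPM (SD, n = 2 each), a 2.26-fold difference with a log2 fold change of 1.18 ± 0.29 (SE, 95% interval 0.52 to 1.83, edgeR adjusted p 0.0191). Without anterior replicate 1 the call was lost, at a log2 fold change of 0.98 and an adjusted p of 0.0625. The other left-out libraries gave adjusted p-values of 0.000366 to 0.0246.

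Red cell genes were higher in anterior cells, as Runx1 was. All 9 tested genes of a red cell list were called higher there by edgeR and 7 by limma-voom, and the summed level of the list was 3303 and 8420 CPM in the anterior libraries against 6.04 and 9.55 in the central ones. The globins Hba-a1, Hba-a2, Hbb-bt and Hbb-bs were among 5 genes of that list at 0 in all 4 libraries. The annotation used for counting is not given, so a count of 0 does not show that a gene was not expressed. Runx1 was higher in anterior replicate 1 than in replicate 2, and the red cell sum was higher in replicate 2. Of 13 tested genes of a white cell and haematopoietic progenitor list, 2 were called higher and 0 lower, at sums of 115 and 90.4 CPM in the anterior and 108 and 110 in the central libraries. Those 2, named after their values were seen, were the macrophage receptor genes Csf1r and Cx3cr1, at edgeR adjusted p-values of 0.00468 and 0.0347. The myeloid genes Tyrobp, Fcer1g, Cd68, Spi1 and Itgam of that list were not called (edgeR adjusted p 0.374 to 0.669). Their log2 fold changes were 0.28 to 0.42. The 2 of 13 compare with 10.7% of all tested genes called higher. The progenitor genes Kit, Gata2 and Myb had log2 fold changes of -0.29, -0.36 and -0.54 and were not called (edgeR adjusted p 0.229, 0.62 and 0.0666). The leukocyte marker Ptprc measured 1.56 and 1.43 CPM against 1.75 and 1.48 (adjusted p 0.871). The part of blood cells in the Runx1 difference was not tested.

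Runx2 (ENSMUSG00000039153.16, chr17:44495987-44814797, minus strand) measured 14.8 and 9.44 CPM in the anterior libraries, against 21.9 and 13.1 in the central ones. The groups overlapped, since anterior replicate 1 was above central replicate 2. Its log2 fold change was -0.53 ± 0.27 (SE, 95% interval -1.14 to 0.09, edgeR adjusted p 0.202). Without anterior replicate 1 it was -0.88 (adjusted p 0.0325), and without central replicate 2 it was -0.85 (adjusted p 0.00589), and it was called in both of those fits. Without anterior replicate 2 or central replicate 1 the value moved to -0.24 and -0.11. Opposite-strand exons of Runx2os1 cover 5.87% of the Runx2 exon length, and those of Gm26626 cover 0.881% of Runx1.

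Runx3 (ENSMUSG00000070691.10, chr4:135120652-135177990, plus strand) was the lowest of the family in counts, at 1.62 and 0.852 CPM in the anterior libraries, against 3.31 and 1.48 in the central ones. The groups overlapped, with anterior replicate 1 above central replicate 2. Its log2 fold change was -0.95 ± 0.51 (SE, 95% interval -2.11 to 0.22, edgeR adjusted p 0.227). It was called without central replicate 2 (log2 fold change -1.41, adjusted p 0.0474), whereas without central replicate 1 it was -0.25 and without anterior replicate 2 it was -0.56. A list of Schwann and neural genes, given because Runx3 acts in sensory neurons, summed to 23.2 and 19.0 CPM in the anterior and 59.8 and 53.0 in the central libraries. Of its 6 tested genes 3 were called lower and 0 higher, and Sox10 and Foxd3 were at 0 in both anterior libraries. The part of such cells in the Runx3 values was not tested.

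Per kilobase of exon, Runx1 made up 32.0% and 36.8% of the summed Runx level in the anterior libraries, against 13.0% and 13.0% in the central ones. Runx2 made up 57.0% and 54.5% against 68.7% and 72.5%, and Runx3 11.04% and 8.70% against 18.4% and 14.5%. The groups did not overlap for any of the 3 shares, which sum to the whole and so are not independent. Runx2 held the largest share in every library on this scale. With the longest transcript as the length, Runx1 held 41.6% and 46.8% in the anterior libraries and Runx2 49.4% and 46.3%, so Runx1 was marginally above Runx2 in anterior replicate 2.

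Cbfb, the non-DNA-binding subunit shared by the Runx factors, differed little between libraries. Cbfb (ENSMUSG00000031885.14, chr8:105170674-105217989, plus strand) measured 200.3 and 212 CPM in the anterior libraries, against 203 and 204 in the central ones. Its groups overlapped and all libraries lay within a narrow range. Its log2 fold change was 0.02 ± 0.06 (SE, 95% interval -0.12 to 0.16, edgeR adjusted p 0.854), and its sign changed with library totals alone and with upper-quartile factors. Per kilobase of exon, Cbfb was 19.6 and 31.2 times the summed Runx level in the anterior libraries, against 16.2 and 28.6 times in the central ones.

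Sp7 (ENSMUSG00000060284.7, chr15:102356606-102367182, minus strand) measured 4.86 and 4.23 CPM in the anterior libraries, against 2.60 and 2.87 in the central ones. Both anterior values were above both central ones, from 80 to 162 counts per library. The means were 4.54 ± 0.45 and 2.74 ± 0.20 CPM (SD, n = 2 each). The log2 fold change of 0.73 ± 0.27 (SE, 95% interval 0.11 to 1.35) did not pass after adjustment over all genes (edgeR adjusted p 0.0903, between 0.0757 and 0.313 across alternatives and left-out libraries).

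Nkx3-2 (ENSMUSG00000049691.8, chr5:41761483-41764501, minus strand) had 50 and 12 counts in the anterior libraries, against 157 and 45 in the central ones. These were 1.499 and 0.409 CPM against 5.10 and 1.39. The groups overlapped, since anterior replicate 1 was just above central replicate 2, while within each replicate number the central value was higher. The log2 fold change was -1.74 ± 0.71 (SE, 95% interval -3.35 to -0.13, edgeR adjusted p 0.115). A call was obtained with no low-count filter (edgeR adjusted p 0.0198), without anterior replicate 1 (log2 fold change -2.97, adjusted p 0.0143) and without central replicate 2 (-2.39, adjusted p 0.00193). Without central replicate 1 it was -0.53 (adjusted p 0.686), and without anterior replicate 2 it was -1.10 (adjusted p 0.306).

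Libraries with the same replicate number leaned the same way for most of these genes. Replicate 1 was above replicate 2 in both populations for 7 of the 10, and for 25.5% of all tested genes. The ratio was largest for Nkx3-2, at 3.66-fold in anterior and 3.67-fold in central cells. For Runx3 it was 1.90-fold and 2.23-fold, and for Runx2 1.56-fold and 1.66-fold. A ratio of at least 1.5 in both populations was found for these 3 genes and for 2.14% of all tested genes. Cbfb, Gdf6 and Sp7 did not show it, with ratios of 0.904 to 1.15. Among the gene lists described below, the cartilage list had the largest share with more in replicate 1 of both populations, at 11 of 13 tested genes. Osteoblast regulators had 7 of 11 and joint interzone genes 7 of 14. The red cell, endothelial and ectoderm lists had 0. The cause was not tested.

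**Figure D3:**
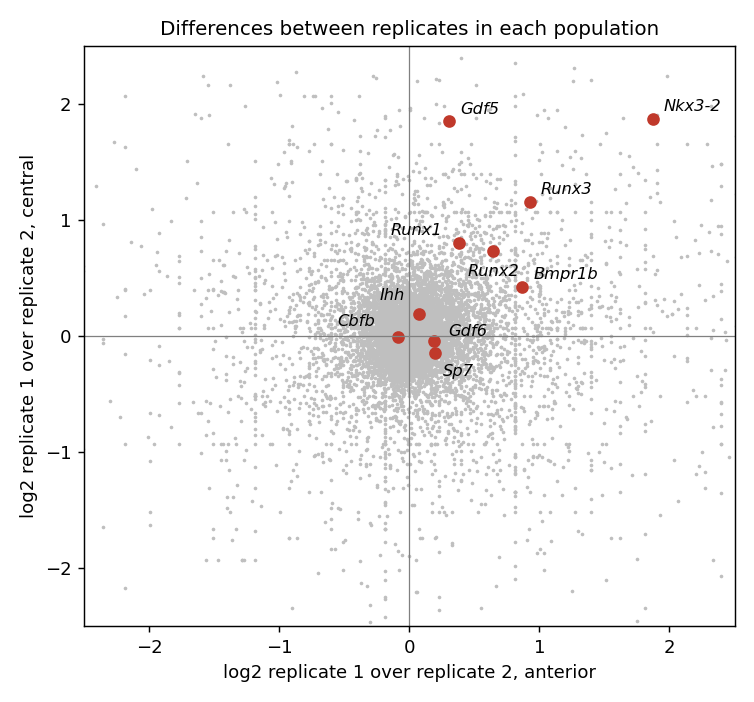
Log2 ratio of replicate 1 to replicate 2 in anterior cells (horizontal axis) and in central cells (vertical axis), with grey points for tested genes and red points for the 10 regulators. Nkx3-2, Runx3, Runx2, Runx1, Bmpr1b and Gdf5 lie in the upper right, Cbfb and Gdf6 lie near the centre, and 142 grey points fall outside the axes.

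The order of levels can be compared between genes per kilobase of exon (GENCODE M21 exons). In anterior cells Cbfb was at 59.3 ± 2.46 CPM per kb (SD, n = 2), followed by Gdf5 at 4.02 ± 0.60, Gdf6 at 3.15 ± 0.30 and Bmpr1b at 1.68 ± 0.70. Runx2 at 1.37 ± 0.42 overlapped with Bmpr1b and with Sp7 at 1.34 ± 0.13. Runx1 followed at 0.829 ± 0.154, overlapping with Nkx3-2 at 0.555 ± 0.449, which in turn overlapped with Runx3 at 0.247 ± 0.108. Ihh was lowest at 0.115 ± 0.004.

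In central cells the order below Cbfb (58.5 ± 0.28 CPM per kb) differed. Bmpr1b at 4.25 ± 0.88 and Gdf5 at 4.18 ± 3.35 overlapped, and Runx2 at 1.98 ± 0.70 and Nkx3-2 at 1.89 ± 1.53 overlapped with Gdf5 and with each other. Sp7 at 0.805 ± 0.057 overlapped with Nkx3-2 and lay above Gdf6 at 0.560 ± 0.012. Runx3 at 0.479 ± 0.259 overlapped with Gdf6 and with Runx1 at 0.367 ± 0.141, and Ihh was again lowest at 0.130 ± 0.012. By its mean, Gdf6 held place 3 of 10 in anterior and place 7 in central cells, or places 3 and 9 with the longest transcript as the length. The Runx1 level depends most on the length used, since the exons of all its transcripts together are 2.05 times as long as the longest one.

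**Figure D4:**
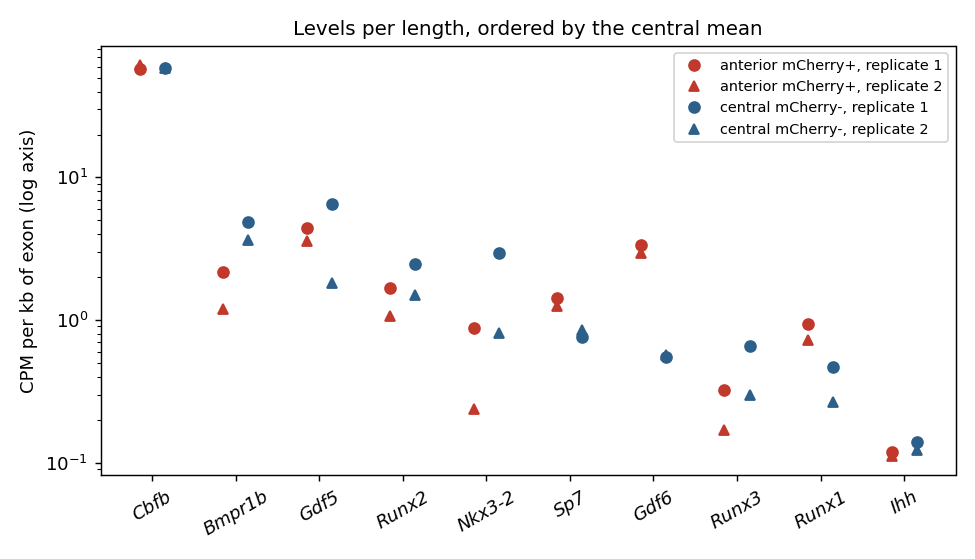
CPM per kilobase of exon on a log axis for each regulator in each library, ordered from left to right by the central mean. Cbfb stands near 59 in all 4 libraries, the other genes lie below 7, and Ihh lies lowest, at 0.112 to 0.138.

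The genes of the same pathways are given from lists chosen by function, with counts read against the backgrounds of 10.7% called higher and 12.3% called lower. Of 8 further GDF and BMP ligands, 4 rose and 1 fell in anterior cells (median log2 fold change 0.36). Bmp4, a ligand of limb mesenchyme, measured 155 and 137 CPM in the anterior and 56.2 and 51.1 in the central libraries (log2 fold change 1.44 ± 0.09 SE, edgeR adjusted p 1.18e-05). Bmp5 measured 21.3 and 19.3 against 7.40 and 5.44 CPM (log2 fold change 1.66). The remaining calls, named after their values were seen, were Bmp7 (0.51), Gdf11 (0.24) and, in the other direction, Bmp6 (-3.22, from 2 to 54 counts). Gdf7, the third paralog of the Gdf5 group, had 0 and 10 counts in the anterior and 26 and 12 in the central libraries and was not called (adjusted p 0.265).

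Of 13 further receptors and intracellular Smads, 1 was called higher and 1 lower in anterior cells (median 0.15). Bmpr1a, the type I receptor that shares ligands with Bmpr1b, measured 220 and 228 CPM against 251 and 254 (log2 fold change -0.17, edgeR adjusted p 0.0709). The type II receptor Bmpr2 measured 162 and 156 against 148 and 152 CPM (adjusted p 0.391), and the common Smad4 measured 262 and 264 against 232 and 231 (adjusted p 0.0559). The call in each direction was the inhibitory Smad7, at 122 and 104 against 60.8 and 61.3 CPM (log2 fold change 0.89, adjusted p 0.000218), and Ror2, a receptor tyrosine kinase, at 94.6 and 91.3 against 136 and 150.4 (log2 fold change -0.63, adjusted p 0.000539).

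Of 10 BMP antagonists, 1 was called higher and 3 lower. Bambi, a decoy receptor, was higher at 87.2 and 87.6 against 31.6 and 28.4 CPM (log2 fold change 1.54, edgeR adjusted p 8.23e-06). Fst, which binds activin and BMP ligands, had 7 and 2 counts in the anterior and 450 and 411 in the central libraries. Chrdl1 was also lower (log2 fold change -1.46), and the other gene called lower, named after its value was seen, was Grem1 (-0.54). Nog, an antagonist of GDF5 in cartilage and joints, showed the spread of Gdf5, at 4.68 and 5.18 CPM in the anterior and 5.91 and 1.73 in the central libraries, and was not called (adjusted p 0.629).

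Other genes of joint interzones were called lower in 8 of 14 and higher in 0 (median -1.30, beside -0.009 over all tested genes). The odd-skipped factor Osr2 measured 3.21 and 2.25 CPM in the anterior and 81.0 and 105 in the central libraries (log2 fold change -5.08 ± 0.19 SE, edgeR adjusted p 1.14e-06). Osr1 measured 2.85 and 0.682 against 57.3 and 48.8 CPM (log2 fold change -4.87). Gdf6 was called in the direction opposite to each called gene of that list. Whether interzone cells were present in these libraries was not tested. Cartilage genes were called lower in 10 of 13 and higher in 0 (median -1.67). Sox9, the master factor of chondrocytes, measured 153 and 112 against 330.4 and 309 CPM (log2 fold change -1.27 ± 0.13 SE, adjusted p 0.00019), Col9a2 measured 6.27 and 3.55 against 79.1 and 39.6, and Matn4 had 50 and 9 against 1012 and 338 counts.

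Among partners and corepressors of Runx proteins, 3 of 17 were called higher and 5 lower (median 0.06). Of the ETO family corepressors, Cbfa2t3 rose and Runx1t1 fell. Cbfa2t3 measured 30.4 and 26.7 CPM in the anterior and 12.01 and 12.4 in the central libraries (log2 fold change 1.22, edgeR adjusted p 0.000216). Runx1t1 measured 12.1 and 8.52 against 75.9 and 75.2 CPM (log2 fold change -2.87, adjusted p 5.23e-06). Of the Groucho corepressors, Tle4 was higher (log2 fold change 0.52) and Tle2 lower (-1.33). Named after their values were seen, Tle1 was also called higher (0.30) and Tle5 lower (-0.41), and Tle3 was not called (0.21, edgeR adjusted p 0.0824).

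Other osteoblast regulators were called higher in 5 of 11 and lower in 2 (median 0.45). The homeobox genes Msx2 and Dlx5, both of which also act in early limb mesenchyme and ectoderm, had the largest rises, at 67.5 and 62.1 against 10.5 and 8.06 CPM for Msx2 and 25.9 and 23.6 against 4.68 and 4.91 for Dlx5 (log2 fold changes 2.80 and 2.37). Twist2 and Zbtb16 fell, with log2 fold changes of -1.45 and -2.07 (edgeR adjusted p 4.66e-05 and 0.00063). Matrix genes and late products of osteoblasts were called lower in 4 of 8 tested and higher in 0 (median -0.84). Among them Sparc and Col1a1, which mesenchyme also expresses, had log2 fold changes of -1.49 and -0.94. The bone sialoprotein gene Ibsp, Bglap2 and Mepe were at 0 in all 4 libraries and Dmp1 had 2 counts in 1 library. Bglap had 7 to 18 counts per library and was not called (edgeR adjusted p 0.954). As the annotation used for counting is not given, the counts of 0 do not show a lack of expression.

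Of the genes through which Ihh signals or is controlled, 1 of 15 was called higher and 6 lower (median -0.24). Gli3, the main repressor of the pathway, measured 314 and 379 against 197 and 199 CPM (log2 fold change 0.81, edgeR adjusted p 0.00034). The inhibitor Hhip and the co-receptor Boc were lower, at log2 fold changes of -2.63 and -0.99 (adjusted p 0.000154 and 4.83e-05). The remaining genes called lower, named after their values were seen, were Gli2 (-0.69), Cdon (-0.62), Ptch1 (-0.54) and Gli1 (-0.42). Hedgehog ligands share these genes, so they do not report Ihh alone. Pthlh, which encodes the peptide of the growth plate loop with Ihh, had 26 and 16 counts against 14 and 4 and was not called (adjusted p 0.287).

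Relatives of Nkx3-2 and other sclerotome genes were called lower in 6 of 7 and higher in 1 (median -3.11). Pax9, a factor that acts upstream of Nkx3-2 in the sclerotome, was the gene called higher, at 27.7 and 21.9 CPM against 3.44 and 1.27 (log2 fold change 3.40 ± 0.36 SE, edgeR adjusted p 0.000258). Meox1 and Meox2 fell by 4.64 and 3.35 on the log2 scale. Pax1, named after its value was seen, went the other way from Pax9, at 27 and 13 against 224 and 120 counts (log2 fold change -3.11, edgeR adjusted p 0.00185).

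**Figure D5:**
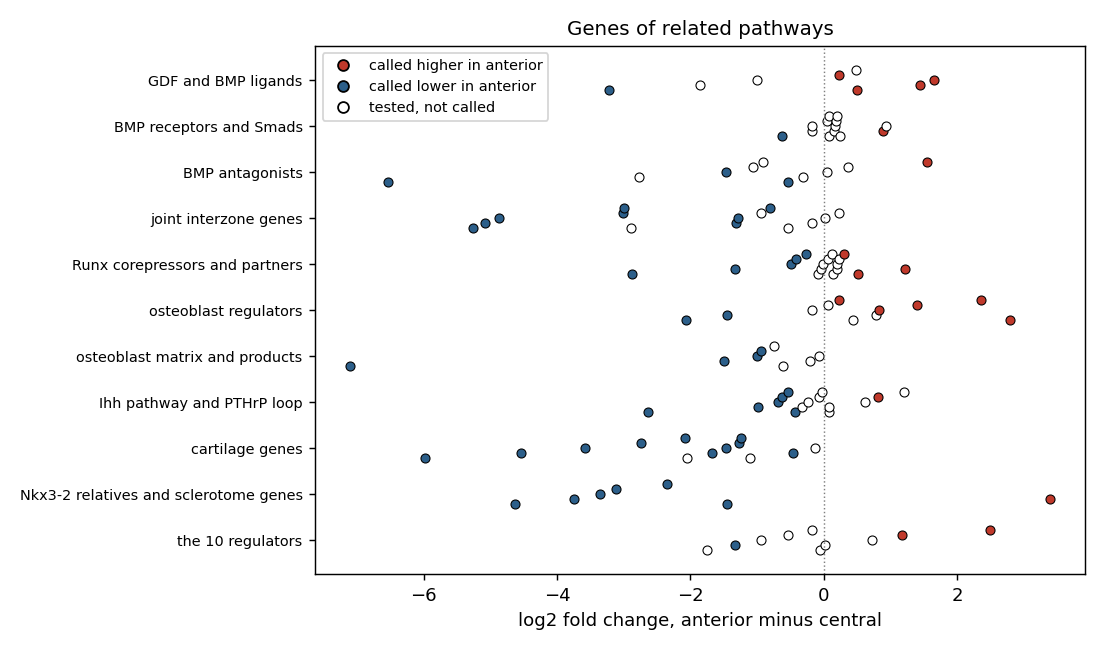
Log2 fold change, anterior minus central, of each tested gene in 10 pathway lists and of the 10 regulators, with red points for genes called higher in anterior cells, blue for lower and white for not called (vertical offsets within a row only separate points). Joint interzone, cartilage and osteoblast matrix lists hold blue and white points only, while the 10 regulators hold 2 red, 1 blue and 7 white.

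Where a list had 0 genes called higher by edgeR, as in the joint interzone, cartilage, osteoblast matrix, endothelial, myogenic, ectoderm, Schwann and neural and tendon lists, 0 genes were also higher at an unadjusted p under 0.05, and 0 with DESeq2 or limma-voom. In the white cell list, where 0 genes were called lower by edgeR, 1 had a lower level at an unadjusted p under 0.05, and 0 were called lower with DESeq2 or limma-voom.

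Markers of other cell types also differed between the populations. Of the tested genes, 8 of 8 in a myogenic list, 10 of 12 in an ectoderm list, 6 of 10 in an endothelial list and 4 of 5 in a tendon list were called lower in anterior cells by edgeR, and 0 were called higher. With limma-voom 4 ectoderm genes were called lower, and with limma-voom or DESeq2 5 endothelial genes were. Summed levels in the anterior and central libraries were 2.42 to 4.17 against 149 to 152 CPM for the myogenic list, with Pax7 and Myog at 0 in both anterior libraries. They were 10.7 to 11.1 against 59.4 to 199 for ectoderm, 13.6 to 20.1 against 38.2 to 47.9 for endothelium and 60.2 to 72.0 against 276 to 378 for tendon. A list of limb mesenchyme genes summed to 3080 to 3234 CPM in anterior and 3541 to 3762 in central cells, with 3 of 10 called higher and 4 lower. The part of these cell types in the differences of Bmpr1b, Gdf6 and Nkx3-2 was not tested.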

How the data were processed

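The authors deposited raw read counts per gene symbol, not normalized. STAR 2.7.9a, HTSeq, DESeq2 and the build mm10 are named, with no order, in the submitters' processing notes. Annotation and strand setting are not given in the sources used here. Per the labels, libraries were paired-end sequenced to about 25M reads. Even numbers made up 72.8% to 75.6% of counts from 1 to 10, so mates may be counted singly. A fit on halved counts was run. The floor of 3 counts covers counting error only.

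Count columns were matched to sample titles by domain and number, and 0 columns were left unmatched. The counts entered edgeR 4.0.16 (R 4.3.3) with filterByExpr defaults, TMM factors and the quasi-likelihood F test on all 14610 tested genes, with Benjamini-Hochberg adjustment and a threshold of 0.05. The SE is the log2 fold change divided by the square root of F, and 95% intervals use the moderated degrees of freedom. CPM is TMM-scaled. Exon lengths and coordinates came from GENCODE M21. The pipeline was tested on simulated counts. Alternatives were other scalings and filters, DESeq2 1.42.0, limma-voom (limma 3.58.1), the replicate block, halved counts, removal of red cell genes, removal of Rn45s (added after seeing the data), a threshold of 0.01, the longest transcript as length, and each library left out.

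The 10 genes and all lists were chosen with earlier results of these data known. From each pathway list, up to 2 genes with the largest rise and up to 2 with the largest fall were named, among called genes with a mean of at least 5 CPM and no overlap. Sox9, Nog, Gdf7, Pthlh, Bmpr1a, Bmpr2 and Smad4 were named in any case. Tbx4, Tbx5 and cell type markers were added as label checks.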

Additional observations from a re-analysis of the deposited data

How the results depend on the processing

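Gdf6 and Bmpr1b kept their direction and their call under all 15 alternatives, and Runx1 in 14 of 15; the stricter threshold of 0.01 kept Gdf6 and Bmpr1b. The count of genes called, 3351, was 1690 at an adjusted p under 0.01 and ranged from 2009 to 3697 with each library left out, the lowest without anterior replicate 2. In such fits the lone library of a group is assumed to vary like the other group. With all 4 libraries, 11.6% of all tested genes were called at the 0.01 threshold, the background for the regulators called there. The count of the 10 regulators called, 3, was 2 at the 0.01 threshold and ranged from 3 to 7 with each library left out, with 7 called without central replicate 2 (24.6% of all tested genes were called there). Cbfb changed sign to -0.011 with library totals alone and to -0.017 with upper-quartile factors, and ranged from -0.017 to 0.066 with each library left out. Gdf5 changed sign to 0.25 with limma-voom and ranged from -0.70 to 1.15 with each library left out. Of the 20 levels per length, 9 moved by more than 1 SD when the longest transcript was used, by 2.05 times for Runx1 and by at most 1.37 times for the other genes. Ihh has no value with a mean count of at least 50 or with halved counts, since it did not pass the low-count filter of those fits. The cause of these changes was not tested.

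The titles number the libraries 1 and 2 in both populations and give no other pairing. Across genes, which are not independent replicates, the differences between replicates in anterior and in central cells had a Pearson correlation of 0.064 and a Spearman correlation of 0.034. With the replicate block, 3586 genes (24.5%) and 5 of the 10 regulators were called. Runx2 (log2 fold change -0.52, edgeR adjusted p 0.02) and Nkx3-2 (-1.76, adjusted p 0.00872) were added, and Gdf5 was at 0.16 (adjusted p 0.752).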
